A study of Mus musculus with 87 samples.

Results

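Glutamate and GABA are the main excitatory and inhibitory transmitters of the brain, and their receptors are of 2 kinds. Ionotropic receptors (AMPA, kainate, NMDA and the delta family for glutamate, GABA-A for GABA) are ion channels built from several subunits, each encoded by its own gene, whereas the metabotropic glutamate (mGlu) receptors and the GABA-B receptor act through G proteins. Neurons carry most of these receptors at synapses, and astrocytes and oligodendrocytes are also known to express some of them. The genes described here were those whose symbol marks a glutamate receptor (Gria, Grid, Grik or Grin followed by a number, or Grm) or a GABA receptor (Gabr or Gabbr) and which had 50 or more counts summed over all 84 wells. Of 48526 genes counted, 49 matched by name and 44 reached the minimum, among 16473 genes that did so in all.

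The 44 genes comprised 4 AMPA, 5 kainate, 7 NMDA and 2 delta subunits, the mGlu receptors of group I (2 genes), group II (2) and group III (3), the GABA-A subunits alpha (5), beta (3), gamma (3) and others (4), and the GABA-B subunits (2). The symbol rule also took in 2 genes that encode no subunit, namely Grin1os, a transcript antisense to Grin1, and Grid2ip, which encodes a scaffold protein. Just inside the limit were Grin1os with 59 counts, Grin3b with 72, Gabrd with 74 and Gabrp with 79, and left out were Gabre with 38, Gabrr3 with 29, Gabrr1 with 22, Gabra6 with 16 and Grm6 with 3.

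The samples came from the ventral midbrain of wildtype C57BL/6J mice, adult males and females of 6 to 12 months, that were injected bilaterally with 40 ng of IFN-γ, a cytokine released mainly by T cells and natural killer cells, in 400 nL of saline, or with saline alone. Tissue was taken 6, 24, 48 or 72 h later, nuclei were sorted on NeuN, a nuclear antigen of most mature neurons, and wells of sorted nuclei were sequenced as pools, with 4 or 6 wells per fraction, time and treatment. Single nuclei of 3 mice (1 saline, 2 IFN-γ) were also profiled at 48 h, 4699 in all. Wells are not tied to mice, and a group pooled 2 to 3 mice, so a p-value over wells measures the spread between wells, which may be technical. The deposited labels call every well NeuN+, and the fraction of each well was taken from the study's own list of well barcodes.

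NeuN- wells held 20962 to 301445 unique transcripts (median 110247.5) and NeuN+ wells 277113 to 1684374 (median 1064222), so that fewer receptor genes could be tested in NeuN- wells. Levels are given as CPM, a gene's counts per 1000000 counts of its well. In NeuN- saline wells the summed CPM of 6 oligodendrocyte markers averaged 7643 to 8217 by time, against 303.8 to 376.6 in NeuN+ saline wells. B2m, a gene known to be induced by IFN-γ, was called higher after IFN-γ in both fractions at all 4 times. Some groups also differed in sex-linked transcripts: in NeuN- wells at 6 h the Y-linked gene Eif2s3y averaged 130.8 CPM after saline and 1.61 after IFN-γ, and at 24 h Xist averaged 2038 CPM after saline and 190.4 after IFN-γ. At these times the treatment cannot be told apart from the mix of mice in the wells. In such pools fewer cells of one type and less RNA per cell cannot be told apart either.

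The regions just before the transcription starts of Grik2, Grm3, Gria4 and Gabrb1 are shown because these are the genes called in NeuN- wells that have a promoter in the table used, and the IFN-γ pathway is known to act through GAS and ISRE elements. Sequences are RefSeq promoters of build GRCm38.p6, from 250 bases before to 50 bases after the start, 5′ to 3′ on the gene's strand, and capitals mark matches on either strand to the letters TTCNNNGAA (GAS) or GAAA, any 2 bases and GAAA (ISRE), which did not overlap one another.
Grik2 (chr10:49788705-49789004, minus strand): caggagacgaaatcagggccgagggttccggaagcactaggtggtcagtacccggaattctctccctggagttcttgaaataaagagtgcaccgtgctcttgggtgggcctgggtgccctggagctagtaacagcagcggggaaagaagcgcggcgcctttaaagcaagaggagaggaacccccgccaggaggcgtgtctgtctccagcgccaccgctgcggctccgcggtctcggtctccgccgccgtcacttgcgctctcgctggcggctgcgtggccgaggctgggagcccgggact
Grm3 (chr5:9725303-9725602, minus strand): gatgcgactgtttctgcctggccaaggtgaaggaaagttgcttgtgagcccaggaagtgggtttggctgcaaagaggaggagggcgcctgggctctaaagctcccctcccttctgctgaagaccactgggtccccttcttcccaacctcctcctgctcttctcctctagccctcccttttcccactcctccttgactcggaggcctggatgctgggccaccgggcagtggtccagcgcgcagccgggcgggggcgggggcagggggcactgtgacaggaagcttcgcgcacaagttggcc
Gria4 (chr9:4796185-4796484, minus strand): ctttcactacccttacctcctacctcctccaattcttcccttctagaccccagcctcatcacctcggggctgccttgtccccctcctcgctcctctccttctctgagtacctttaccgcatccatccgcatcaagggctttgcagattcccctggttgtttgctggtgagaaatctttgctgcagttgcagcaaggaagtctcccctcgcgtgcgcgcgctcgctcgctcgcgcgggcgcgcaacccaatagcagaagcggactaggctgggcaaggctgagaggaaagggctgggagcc
Gabrb1 (chr5:71657671-71657970, plus strand): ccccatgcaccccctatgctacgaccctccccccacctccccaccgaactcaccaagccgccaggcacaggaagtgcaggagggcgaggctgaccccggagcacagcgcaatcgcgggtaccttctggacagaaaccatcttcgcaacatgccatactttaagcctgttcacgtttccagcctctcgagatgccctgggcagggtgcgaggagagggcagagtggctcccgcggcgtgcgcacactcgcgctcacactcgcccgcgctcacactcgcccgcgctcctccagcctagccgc
Gabrb1, other start (chr5:71699682-71699981, plus strand): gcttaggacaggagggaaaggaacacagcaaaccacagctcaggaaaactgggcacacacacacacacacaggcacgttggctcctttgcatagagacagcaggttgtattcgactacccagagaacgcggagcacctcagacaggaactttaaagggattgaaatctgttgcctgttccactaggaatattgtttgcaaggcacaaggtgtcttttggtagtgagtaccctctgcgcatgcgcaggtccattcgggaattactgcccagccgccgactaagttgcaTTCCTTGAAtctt
The GAS letters occurred in 8.3% of 32851 promoters and in those of 3 of the 29 receptor genes with a promoter in the table (Gabrb1, Gabrg1 and Grid2ip). The ISRE letters occurred in 3.44% of promoters and in 1 of the 29 (Grm8). A receptor gene was counted if any of its promoters matched, whereas the percentages are per promoter (32851 promoters of 27025 genes). The 2 are thus unlike measures. Neither was found for Grik2, Grm3 or Gria4, which says only that these letters are absent from the windows shown.

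The first comparison asked where the receptors were expressed without IFN-γ, between the 18 NeuN+ and 18 NeuN- saline wells. Most receptor genes were far higher in NeuN+ wells, and a small set was higher in NeuN- wells. Of 34 receptor genes that could be tested, 28 were higher and 3 lower in NeuN+ wells (log2 difference beyond 0.5 and adjusted p below 0.01), where 60.0% of all genes tested differed in either direction, 32.4% higher and 27.6% lower. The median log2 difference was 2.38 for the receptor genes and 0.04 for all genes. Fold changes and p-values are from edgeR's quasi-likelihood test with Benjamini-Hochberg adjustment over all genes tested, here and below. Standard errors (SE) were derived from that test, as the absolute log2 fold change divided by the square root of its F value.

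An NMDA subunit and an mGlu receptor were among the 5 genes that differed most. Grin2a, an NMDA subunit, ranged from 531.6 to 628.4 CPM (median 566.7) in NeuN+ wells and from 0 to 63.54 (median 15.84) in NeuN- wells. The wells of the fractions did not overlap, and the difference was 24-fold (log2 4.58 ± 0.13 SE, adjusted p = 2.72e-37). Grm8, a group III mGlu receptor, was at 601.5 to 835.5 CPM (median 692.8) in NeuN+ and 0 to 86.57 (median 24.01) in NeuN- wells, a 23.9-fold difference, again with no overlap. Grin1, the subunit shared by all NMDA receptors, was higher by 4.21 on the log2 scale, and Gabra2 and Grin2b by 2.97 and 3.85. The AMPA subunits were less unequal, with log2 differences of 3.14 for Gria3, 1.78 for Gria1, 1.54 for Gria2 and 1.05 for Gria4. Among the other major subunits, log2 differences were 2.58 for Grm5, 2.44 for Grid1, 2.35 for Gabbr2, 1.40 for Grik1 and 0.89 for Gabrb1.

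The 3 genes that were higher in NeuN- wells were Gabrr2, Grm3 and Gabbr1. Grm3, a group II mGlu receptor that lowers cAMP, ranged from 1432 to 2193 CPM (median 1838) in NeuN- and from 176.8 to 325.5 (median 232.3) in NeuN+ wells, a 7.52-fold difference (log2 -2.91 ± 0.06, adjusted p = 7.91e-43). Gabrr2, a rho subunit of GABA receptors, was 13.8-fold higher in NeuN- wells, although with 98 counts there in all. Gabbr1, the GABA-binding subunit of the GABA-B receptor, was 1.84-fold higher, with wells of the fractions that overlapped slightly (112.3 to 219.6 CPM in NeuN-, 68.42 to 121.1 in NeuN+). The kainate subunit Grik2 (log2 0.26) and the group III receptor Grm7 (0.10) were not called in either direction, and their wells overlapped between fractions. Under the other scaling the median of all genes moved from 0.04 to 0.15, and 31 receptor genes were again called.

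**Figure D1:**
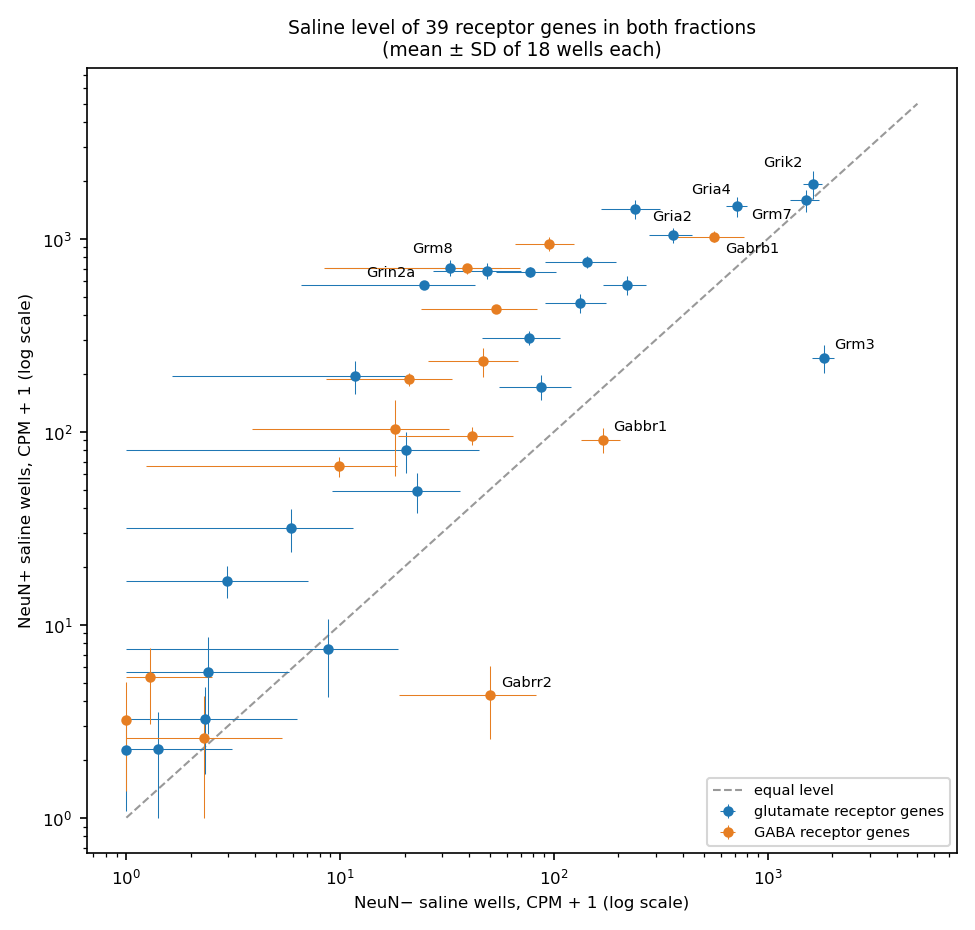
Mean level (CPM + 1, log axes) of 39 of the 44 receptor genes in 18 NeuN- saline wells (x axis) and 18 NeuN+ saline wells (y axis), with bars of 1 SD cut off at 0 and a dashed line of equal level. Most points lie above the line, Gabrr2, Grm3 and Gabbr1 lie below it, and Grik2 and Grm7 lie near it.

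The genes that work with these receptors were split in the same comparison, in which 32.4% of all genes tested were higher and 27.6% lower in NeuN+ wells. Of 35 listed auxiliary subunits and scaffolds of glutamate receptors 22 were tested, 19 were higher and 1 was lower in NeuN+ wells. The exception was Dlg1, a scaffold of the postsynaptic density family (log2 -1.44). Of 18 genes for synthesis, vesicular loading and uptake of the transmitters 11 were tested, and 6 were higher and 5 lower. Higher were Slc17a6 (the vesicular glutamate transporter VGLUT2, log2 4.57), Gad2 and Gad1 (GABA synthesis, 4.04 and 3.02), and lower were Glul (glutamine synthetase, -3.62) and Slc1a3 (a glial glutamate transporter, -3.62). Of 11 partners and scaffolds of GABA receptors 4 were tested, 3 were higher, Kctd8 and Kctd16 among them, and Gphn, the anchor of GABA-A receptors, was lower (-0.63).

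The next comparisons asked how IFN-γ changed the receptors in NeuN- wells, time by time, a gene being called where its log2 fold change lay outside -1 to 1 with an adjusted p under 0.01. At 6 h Grik2 rose and Grm3, Gria4, Gabrb1 and Grid1 fell. These were 5 of the 13 receptor genes with enough counts to test, beside 11.7% of all genes tested (7.86% higher and 3.87% lower). The other 31 receptor genes were too low in these wells. The median log2 fold change of the 13 was -0.66, against a median of all genes within 0.01 of 0. Since the 13 passed a filter on counts, their share says nothing of the rest.

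Grik2 encodes a pore-forming kainate receptor subunit (ENSMUSG00000056073.14, chr10:49094833-49788766, GRCm38). At 6 h its level was 1403, 1494, 1569 and 1576 CPM in the saline wells and 5246 to 6106 (median 5839) in the 6 IFN-γ wells. Every IFN-γ well was above every saline well, and the rise was 3.72-fold (log2 1.89 ± 0.09, adjusted p = 3.15e-18). At 24 h the saline wells ranged from 1323 to 1975 CPM (median 1540) and the IFN-γ wells from 3857 to 4566 (median 4040), a 2.47-fold rise (log2 1.30 ± 0.11, adjusted p = 3.81e-11). At 48 h saline wells held 1516 to 1750 CPM and IFN-γ wells 2141 to 2882, and at 72 h 1570 to 1769 and 2003 to 2230. The wells of the 2 treatments did not overlap at any time, but the log2 differences of 0.65 at 48 h (adjusted p = 3.71e-06) and 0.30 at 72 h (adjusted p = 0.019374) were below the limit on size.

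Grm3 (ENSMUSG00000003974.6, chr5:9485541-9725170) went the other way. At 6 h it was at 1432, 1524, 1589 and 1610 CPM after saline and at 537.0 to 825.9 (median 747.5) after IFN-γ. It was thus 2.28-fold lower, with no overlap of wells (log2 -1.19 ± 0.11, adjusted p = 5.21e-11). At 24 h the saline wells ranged from 1599 to 2084 CPM (median 1799) and the IFN-γ wells from 603.6 to 922.2 (median 868.1), which was 2.35-fold lower (log2 -1.23 ± 0.11, adjusted p = 2.01e-10). At 48 h (log2 -0.45, adjusted p = 0.0013361) and 72 h (log2 -0.26, adjusted p = 0.081292) Grm3 was not called, with IFN-γ wells at 1225 to 1646 and 1413 to 1816 CPM. Every IFN-γ well was still below every saline well at both times.

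**Figure D2:**
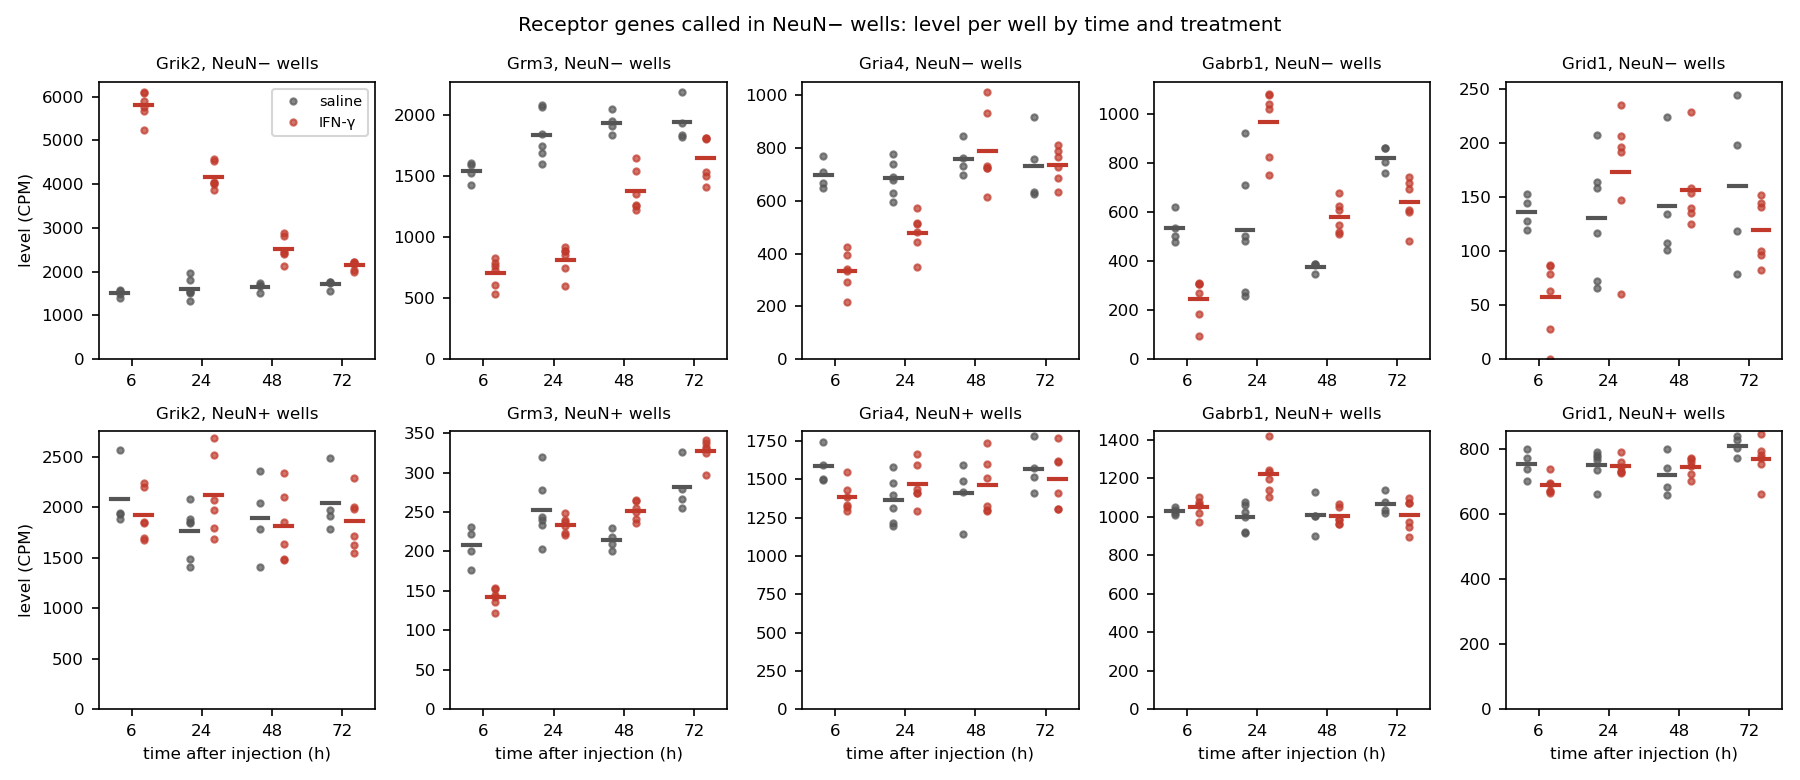
Level (CPM) of Grik2, Grm3, Gria4, Gabrb1 and Grid1 in each well (points; lines are means) by time after injection, for saline (grey) and IFN-γ (red), in NeuN- wells (upper row) and NeuN+ wells (lower row). In NeuN- wells Grik2 is at 5246 to 6106 CPM after IFN-γ at 6 h and at 2003 to 2230 at 72 h, whereas in NeuN+ wells saline and IFN-γ wells of Grik2 overlap at every time.

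The other 3 genes called at 6 h were not called at later times. Gria4, an AMPA subunit (ENSMUSG00000025892.15, chr9:4417896-4796234), was at 650.8, 668.2, 709.7 and 768.9 CPM after saline and at 217.8 to 423.9 (median 338.7) after IFN-γ, 2.17-fold lower (log2 -1.12 ± 0.14, adjusted p = 4.53e-08). Gabrb1, a beta subunit of GABA-A receptors (ENSMUSG00000029212.11, chr5:71658113-72149037), was at 479.8, 505.3, 536.8 and 620.5 CPM after saline and at 95.41 to 310.9 (median 287.9) after IFN-γ, 2.01-fold lower (log2 -1.01 ± 0.15, adjusted p = 1.49e-06). In both genes all IFN-γ wells lay below all saline wells.

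Grid1, a delta family subunit (ENSMUSG00000041078.6, chr14:34820108-35583379), was at 120.0, 128.5, 145.1 and 152.7 CPM after saline and at 0 to 87.11 (median 71.11) after IFN-γ (log2 -1.08 ± 0.29, adjusted p = 0.0037263). This call rested on 49 counts over the 6 IFN-γ wells. Gabrb1 lay at the limit on size: the calls of Gabrb1 and Grid1 were lost when 1 saline well (replicate 4) or 1 IFN-γ well (replicate 5) was left out, and with no filter on counts. Each of these genes also lost its call without 1 more well, Gabrb1 without IFN-γ replicate 1 and Grid1 without saline replicate 1, and Grid1 was not called by DESeq2. Over the fits that left out 1 well the log2 fold change ranged from -1.11 to -0.93 in Gabrb1 and from -1.20 to -0.93 in Grid1.

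At 6 h 3 further receptor genes had an adjusted p under 0.01 with a smaller difference. Among them were Gabbr1 (log2 -0.89, adjusted p = 0.0035522) and the AMPA subunit Gria2 (log2 -0.66, adjusted p = 0.0028477). Grm7 (-0.06), Grik1 (-0.02) and Grm5 (0.25) had adjusted p-values of 0.74597, 0.96826 and 0.28312.

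At 24 h 2 of 12 receptor genes tested were called, Grik2 and Grm3, beside 14.6% of all genes. Gria4 was still below saline (log2 -0.58, adjusted p = 4.66e-04), while Gabrb1 (0.80, adjusted p = 8.86e-04) and the AMPA subunit Gria1 (0.92, adjusted p = 0.0036114) were above it. Gria1 ranged from 43.29 to 185.1 CPM (median 114.4) after saline and from 189.1 to 397.5 (median 235.6) after IFN-γ, with no overlap. The kainate subunit Grik1 was at -0.82 (adjusted p = 0.0028718), with saline wells at 145.4 to 274.1 CPM and IFN-γ wells at 73.61 to 208.7. Grm5 was at 0.53 (adjusted p = 0.016245).

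A pair of genes were kept out at 24 h by the count filter. Gabbr2, the GABA-B subunit that couples to G proteins, was at 100.5 to 206.1 CPM in the IFN-γ wells and 0 to 87.96 in the saline wells, with no overlap. Gabrr2 was at 0 to 40.18 CPM (6 counts in all) after IFN-γ and 14.83 to 110.3 (35 counts) after saline, with wells that overlapped. With no filter on counts both were called, together with Gria1, Grik2 and Grm3.

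At 48 h 0 of 14 receptor genes tested were called, beside 1.40% of all genes. An unadjusted p under 0.05 was reached by 9 of the 14, beside 17.7% of all genes, and DESeq2 also called 0. Gabrb1 was at 383.4 to 387.5 CPM in 3 saline wells, at 347.4 in the other, and at 512.2 to 678.7 (median 577.0) in the IFN-γ wells (log2 0.68 ± 0.13, adjusted p = 4.75e-04). At 72 h 0 of 17 were called, beside 1.13% of all genes, and 5 of the 17 had an unadjusted p under 0.05, beside 15.2% of all genes, with 0 called by DESeq2. Gabrb1 was then at 762.5 to 863.1 CPM after saline and 483.2 to 743.2 after IFN-γ (log2 -0.41, adjusted p = 0.034181), so that it lay below saline at 6 and 72 h and above it at 24 and 48 h. Its saline level also moved between times, with 259.7 to 923.6 CPM over all 18 NeuN- saline wells. The part of this in the changes of sign was not tested. Gria2 was at 363.1, 416.7, 431.3 and 495.5 CPM after saline and 244.2 to 379.3 after IFN-γ at 72 h (log2 -0.47, adjusted p = 0.054716).

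Markers of 2 glial types moved in the same wells. The 6 oligodendrocyte markers, among them the myelin genes Mbp and Mog, summed to 6921 to 7973 CPM after saline and 3816 to 4872 after IFN-γ at 6 h (4 of 6 called lower), and to 7044 to 8623 and 2347 to 2944 CPM at 24 h (6 of 6 called lower). The sums were 7786 to 8692 and 6443 to 7774 CPM at 48 h and 7980 to 8467 and 7326 to 8260 CPM at 72 h, with 0 of 6 called. All 6 were tested at every time, so none was near 0. The summed level of 6 astrocyte markers was 642.3 to 735 CPM after saline and 461.7 to 592 after IFN-γ at 6 h, and 545.3 to 1351 and 1583 to 2223 CPM at 24 h. It was 387.2 to 816 and 761.8 to 984.6 CPM at 48 h, and 918.3 to 1244 and 656.5 to 1183 CPM at 72 h. Only 2 of the 6, Slc4a4 among them, had enough counts to test, and both were called higher at 24 h. The part of these markers in the receptor results was not tested.

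**Figure D3:**
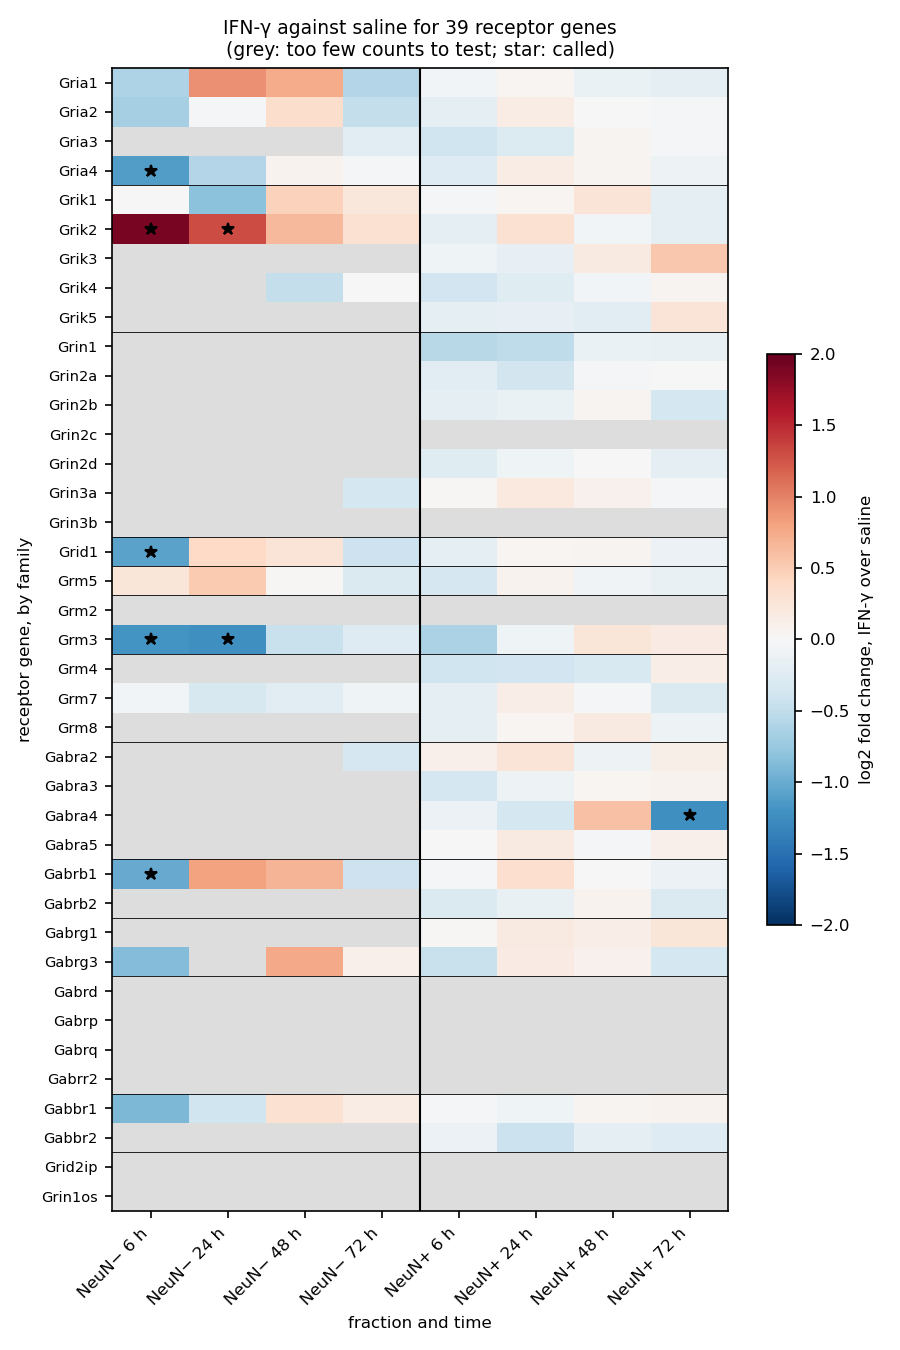
Log2 fold change of IFN-γ over saline (colour, from -2 to 2) for 39 of the 44 receptor genes (rows, by family) in each fraction and time (columns), with grey for genes with too few counts to test and a star for each call. Stars stand at Grik2 and Grm3 in NeuN- wells at 6 and 24 h, at Gria4, Grid1 and Gabrb1 in NeuN- wells at 6 h and at Gabra4 in NeuN+ wells at 72 h.

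In NeuN+ wells 35 receptor genes could be tested at each time, and the single call was a fall of Gabra4 at 72 h. At 6 h 0 of 35 were called, beside 1.37% of all genes, and 17 of 35 had an unadjusted p under 0.05, all lower after IFN-γ, beside 20.6% of all genes. With an adjusted p below 0.05 at any fold there were 12, all lower, beside 8.61% of all genes. The median log2 fold change of the 35 was -0.19, and that of all genes was -0.01. DESeq2 called 0 as well.

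Grm3 and Grin1 were among the 3 genes with the smallest p-values at 6 h. Grm3 was at 176.8, 200.5, 222.4 and 231.0 CPM after saline and at 121.7 to 153.2 (median 143.4) after IFN-γ (log2 -0.63 ± 0.08, adjusted p = 4.82e-07). In Grin1 saline wells held 166.0, 172.3, 205.7 and 226.7 CPM and IFN-γ wells 127.9 to 160.0 (log2 -0.56 ± 0.09, adjusted p = 2.98e-05). Neither overlapped between treatments, and the changes stayed below the limit on size. Gria3 and Grm5 were at -0.39 and -0.33, and Grik2 was not among the 12. In these wells the oligodendrocyte markers summed to 288.4 to 402.8 CPM after saline and 156.9 to 209.5 after IFN-γ, and the part of this in the level of Grm3 was not tested.

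At 24 h 0 of 35 were called (1.73% of all genes, and 0 by DESeq2), with 12 of 35 at an unadjusted p under 0.05, beside 25.2% of all genes. Grin2a ranged from 543.0 to 628.4 CPM (median 588.5) after saline and from 386.7 to 470.9 (median 447.5) after IFN-γ (log2 -0.36 ± 0.07, adjusted p = 5.43e-04). Grin1 was at 157.6 to 269.2 and 116.2 to 175.2 CPM (log2 -0.50, adjusted p = 0.0021001), and Gabbr2 at 204.5 to 334.6 and 158.7 to 209.1 (log2 -0.42, adjusted p = 0.0021209). The wells of Grin2a stood apart, whereas those of Grin1 and Gabbr2 overlapped. Gabra2 and Gabrb1 had adjusted p-values under 0.05 in the other direction, at 0.26 and 0.33.

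At 48 h 0 of 35 were called (0.169% of all genes, and 0 by DESeq2), and 4 of 35 had an unadjusted p under 0.05, beside 12.5% of all genes. The smallest p-values were those of Gabra4 (log2 0.59), Grm3 and Grik1. Gabra4 was at 58.47, 63.08, 70.66 and 95.55 CPM after saline and at 84.61 to 136.6 after IFN-γ. Grm3 was at 201.1 to 229.6 and 235.4 to 264.6 CPM, and Grik1 at 492.1 to 565.4 and 555.2 to 664.7. None of the 3 reached an adjusted p of 0.05.

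At 72 h 1 of 35 was called, beside 0.766% of all genes, and 13 of 35 had an unadjusted p under 0.05, beside 20.1% of all genes. Gabra4, an alpha subunit of GABA-A receptors (ENSMUSG00000029211.11, chr5:71569749-71658308), was at 132.3, 134.2, 170.1 and 186.7 CPM after saline and at 49.30 to 78.05 (median 72.20) after IFN-γ. All IFN-γ wells lay below all saline wells, and Gabra4 was 2.35-fold lower (log2 -1.23 ± 0.11, adjusted p = 1.23e-09). Grin2b was at 726.5 to 764.7 and 585.7 to 637.4 CPM (log2 -0.35, adjusted p = 0.0019356), again with no overlap but below the limit on size. The kainate subunit Grik3 was at 38.59 to 83.19 CPM after saline and 84.05 to 112.9 after IFN-γ (log2 0.54, adjusted p = 0.0025728).

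The saline wells were at 132.3 to 186.7 CPM of Gabra4 at 72 h, against 67.68 to 93.82 at 6 h, 60.22 to 179.7 at 24 h and 58.47 to 95.55 at 48 h. Set against the saline wells of all times, its log2 fold change was -0.59 and it was not called. Markers of the thalamus were also lower at 72 h: 7 markers summed to 1835 to 1909 CPM in saline and 1188 to 1455 CPM in IFN-γ wells at 72 h, and 4 of 6 tested were called lower, among them Lef1 (log2 -3.78), Synpo2 (-3.42) and Prkcd (-3.16). At 48 h, when the log2 fold change of Gabra4 was 0.59, Lef1 (1.38) and Synpo2 (1.66) were called higher. Lef1 and Synpo2 were also called lower at 6 h (-2.89 and -1.62) and 24 h (-2.37 and -1.46), when Gabra4 was at -0.12 and -0.35 and was not called. Markers of dopamine neurons summed to 152.4 to 251.5 CPM in saline and 451.8 to 566 in IFN-γ wells at 72 h, with 5 of 5 tested called higher. The part of either list in the values of Gabra4 was not tested. Gabra4 overlaps the start of Gabrb1 on the opposite strand, and whether counting used the strand is not given in the sources used here.

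Whether the response differed between fractions was tested by an interaction term at each time, given as the effect in NeuN+ minus that in NeuN- wells. At 6 h 1 of 34 receptor genes was called, beside 2.50% of all genes: Grik2, with -2.10 ± 0.19 (adjusted p = 2.34e-12). In NeuN+ wells at that time Grik2 was at 1884, 1937, 1947 and 2566 CPM after saline and at 1677 to 2245 (median 1851) after IFN-γ. The differences of Gabrb1 (0.93, adjusted p = 3.59e-04) and Gria4 (0.81, adjusted p = 0.0027722) were below the limit on size.

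At 24 h 3 of 35 were called, beside 4.17% of all genes. Grm3 fell in NeuN- wells and was at 203.2 to 319.2 CPM after saline and 221.4 to 248.8 after IFN-γ in NeuN+ wells, a difference of effects of 1.11 ± 0.15 (adjusted p = 1.72e-07). With no filter on counts it was 0.99 and not called. Gabbr2, with the wells given above for each fraction, had a difference of -2.13 ± 0.32 (adjusted p = 2.75e-06) that rested on 23 saline counts in NeuN- wells. Grik2 differed by -1.01 ± 0.20 (adjusted p = 2.72e-04), just past the limit: the call was lost with another scaling, by DESeq2 and in 13 of 24 fits that left out 1 well (log2 -1.12 to -0.91). At 48 h 0 of 33 and at 72 h 0 of 35 were called, beside 0.128% and 0.347% of all genes. DESeq2 also called 0 at both times, and 4 of 33 and 7 of 35 had an unadjusted p under 0.05, beside 11.9% and 11.6% of all genes.

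The change of the IFN-γ effect with time was tested within each fraction by a comparison added after the data were seen. The effect of Grik2 in NeuN- wells was lower at 48 h than at 6 h by a log2 difference of -1.28 (adjusted p = 1.56e-11), and at 72 h by -1.61 (adjusted p = 1.97e-15). The effects of Gabrb1 and Gria4, below 0 at 6 h, were higher at 48 h by 1.66 (adjusted p = 3.80e-06) and 1.14 (adjusted p = 1.96e-05), and that of Gria4 at 72 h by 1.06 (adjusted p = 4.08e-05). At 24 h the effects of Gabrb1 (1.78, adjusted p = 5.44e-08), Gria1 (1.50, adjusted p = 0.0091659) and Grid1 (1.45, adjusted p = 0.0062161) were higher than at 6 h. Of 19 receptor genes tested 3 were called at 24 h (6.10% of all genes), 3 at 48 h (4.75%) and 2 at 72 h (5.15%). In NeuN+ wells 0 of 37 were called at 24, 48 and 72 h, beside 0.603%, 0.694% and 0.950% of all genes. In the same order 16, 13 and 10 of the 37 had an unadjusted p under 0.05 by edgeR, beside 14.1%, 13.0% and 14.8% of all genes. The comparisons share the wells of 6 h, and time cannot be told apart from the mice of each time.

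Some of the genes that make, load or clear the 2 transmitters changed at several times. In NeuN- wells the glial glutamate transporter Slc1a2 was called higher at 24 h (log2 1.35, adjusted p = 2.43e-06) and 48 h (1.21, adjusted p = 8.57e-06), and the GABA transporter Slc6a11 at 48 h (1.40). Glutamine synthetase, Glul, was called lower at 24 h (-1.18) and 72 h (-1.16). Of 18 genes for synthesis, loading and uptake, these were 2 of 6 tested at 24 h (14.6% of all genes were called), 2 of 6 at 48 h (1.40%) and 1 of 6 at 72 h (1.13%), with 0 of 5 at 6 h (11.7%). In NeuN+ wells 2 of 15 were called at 6 h (1.37% of all genes) and 2 of 14 at 24 h (1.73%): at 6 h Slc17a8 (the vesicular transporter VGLUT3, 1.80) was higher and Slc6a11 (-1.19) lower, and at 24 h Slc1a3 (1.07) was higher and Gad1 (-1.28) lower, and at 48 and 72 h 0 of 14 were called.

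Kctd16, an auxiliary subunit of GABA-B receptors, was called lower in NeuN- wells at 6 h (log2 -1.60, adjusted p = 3.22e-05) and 72 h (-1.02, adjusted p = 0.00705). Its interaction terms were called at 6 h (1.81) and 24 h (2.45), beside 2.50% and 4.17% of all genes. Kctd16 was the only gene called in a treatment comparison among the 11 partners of GABA receptors, of which 1 to 4 were tested in NeuN- and 8 or 9 in NeuN+ wells. In NeuN- wells it was 1 of 2 partners tested at 6 h (11.7% of all genes were called) and 1 of 4 at 72 h (1.13%). In the interaction it was 1 of 4 at 6 h and 1 of 8 at 24 h. Of the 35 auxiliary subunits and scaffolds of glutamate receptors, 4 to 6 were tested in NeuN- and 29 or 30 in NeuN+ wells, and 0 were called in a treatment comparison. The share called over all genes was 1.13% to 14.6% by time in NeuN- wells and 0.169% to 1.73% in NeuN+ wells. Dlg3, a postsynaptic scaffold, was called in the interaction at 24 h (-1.92), beside 4.17% of all genes. Interaction terms were also called for Slc1a2 at 6 h (-1.06), beside 2.50% of all genes. At 72 h they were called for Glul (1.66) and Slc6a11 (1.42), beside 0.347%.

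Single nuclei gave the receptors by class of cell at 48 h. No barcode was shared between the 3 mice, and nuclei were clustered without the receptor genes and named only where listed markers allowed it. The classes were oligodendrocyte-like (191 nuclei of the saline mouse, 744 and 306 of the IFN-γ mice), astrocyte-like (21, 135 and 37), dopamine neuron-like (175, 153 and 109), GABA neuron-like (281, 537 and 252) and VGLUT2 neuron-like (242, 581 and 250). Of the unnamed clusters, one is called by a leading gene, Inpp5d (31, 49 and 54 nuclei), and another by Lef1 (3, 90 and 14). Marker scores of the Inpp5d cluster were highest for microglia (4.66, next list 0.7), with 6 microglia markers in at least 5% of its nuclei. It was left unnamed by a rule on clusters below 1/3 of the median depth of their mice with 0 such markers among their 10 leading genes. Its depth was 0.314 of that median. Receptor genes took 0.748% to 0.809% of transcripts in oligodendrocyte-like nuclei, 1.28% to 1.31% in astrocyte-like, 1.14% to 1.32% in dopamine neuron-like, 1.81% to 2.14% in the other neuron classes and 0.046% to 0.057% in the Inpp5d cluster. The median depth of that cluster was 2801 to 3909 transcripts per nucleus, against 3383 to 4201.5 in oligodendrocyte-like and 13722 to 21085 in the named neuron classes.

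Levels were ranked over the named classes and the Inpp5d cluster, and the Lef1 cluster was left out of the ranking. Among 41 receptor genes with at least 50 transcripts in their highest ranked class, that class was GABA neuron-like for 17, VGLUT2 neuron-like for 10, astrocyte-like for 6, dopamine neuron-like for 6 and oligodendrocyte-like for 2. These levels are a description over 3 mice, with no test. Astrocyte-like nuclei led in Gabrb1, with 3663 to 4434 CPM by mouse against 776.1 to 1010 in the next class (GABA neuron-like), a ratio of 4.38 with 10 CPM added to each mean. They also led in the NMDA subunit Grin2c (77.35 to 174.1 CPM, ratio 5.38) and the GABA-A subunit Gabrg1 (182.4 to 223.5, ratio 3.19). In each of the 3 the mice of the leading class lay above those of the next. Gria1, Gabbr1 and Gabbr2 were the others led by this class.

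Oligodendrocyte-like nuclei led in Grm3 (1338 to 2216 CPM, ratio 2.56 to astrocyte-like nuclei) and Gabrr2 (29.78 to 73.43 CPM, ratio 2.96). These are the genes that stood highest in NeuN- over NeuN+ wells. Dopamine neuron-like nuclei led in Grik3 (329.5 to 353.2 CPM against 81.98 to 134.9 in GABA neuron-like nuclei, ratio 2.91), Grin2b (832.3 to 908.2 CPM, ratio 1.33) and Gabra4 (82.14 to 98.64 CPM, ratio 1.23, with mice overlapping the next class). Gabra4 was higher still in the Lef1 cluster, which was not ranked. VGLUT2 neuron-like nuclei led in Grik1 (442.4 to 639.6 CPM, ratio 2), Grin3a (309.4 to 331.6, ratio 1.6) and Grm2 (1.82 to 4.29, ratio 1.22). GABA neuron-like nuclei led in Gabrb2 (555.6 to 766.3 CPM, ratio 1.61) and Grik2 (2134 to 2402, ratio 1.32). Ratios near 1, as for Gabra3, Grm5 and Grid1 (1.01, 1.02 and 1.02), went with overlapping mice.

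**Figure D4:**
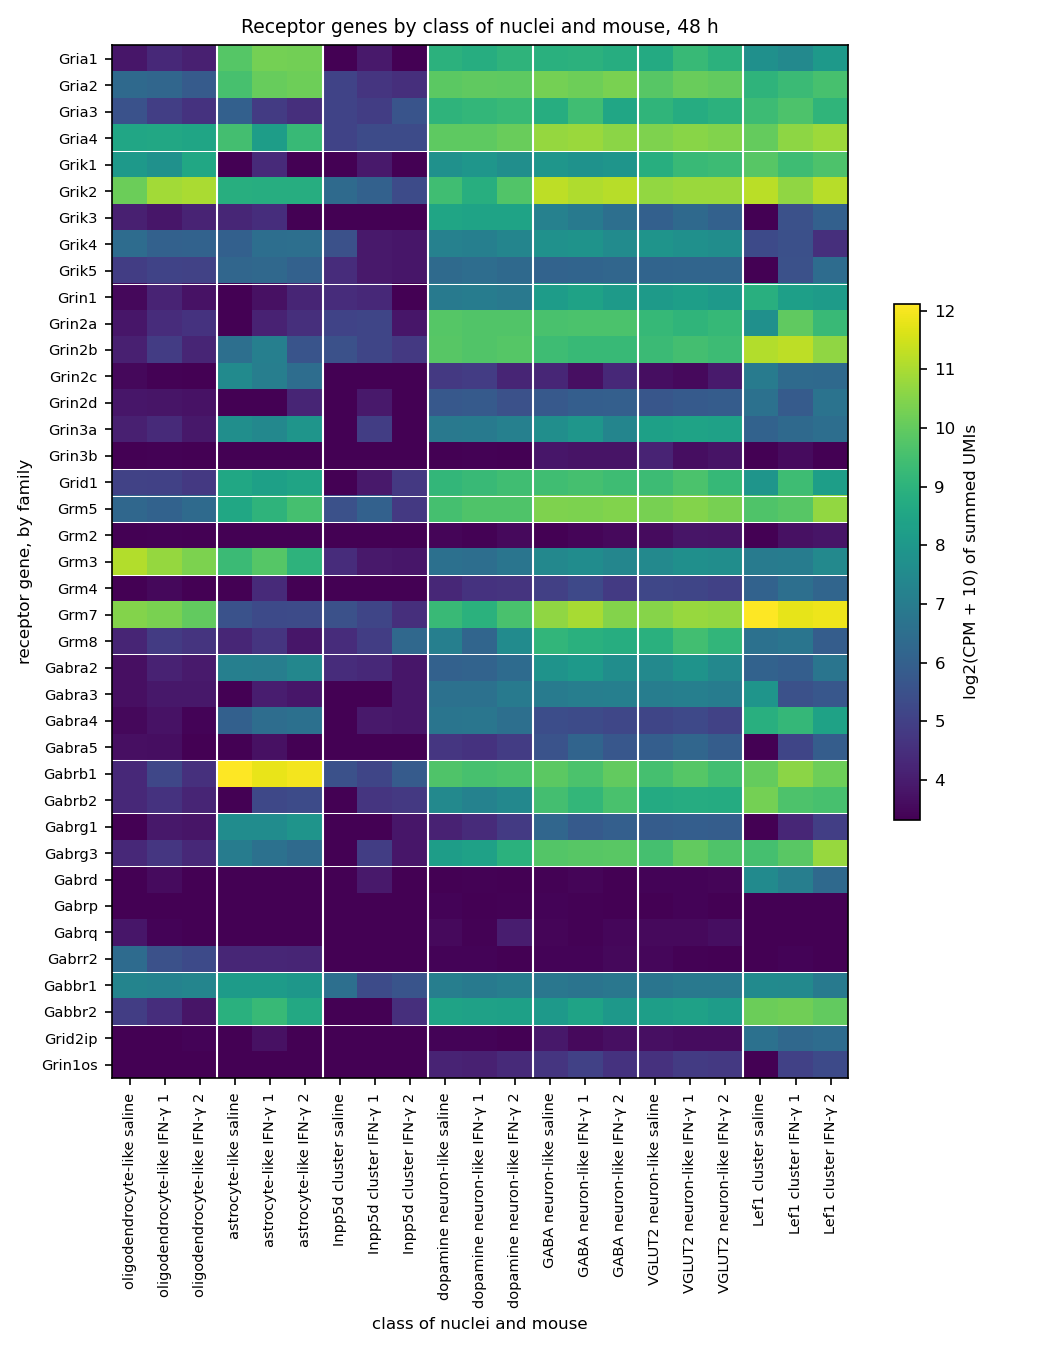
Level of 39 of the 44 receptor genes (rows, by family) in each class of nuclei and each of the 3 mice (columns), as log2(CPM + 10) of summed transcripts. Gabrb1 is brightest in the astrocyte-like columns (3663 to 4434 CPM), Grm3 in the oligodendrocyte-like columns and Gabra4 in those of the unnamed Lef1 cluster, and the Inpp5d cluster is dark throughout.

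The Lef1 cluster was higher than any named neuron class in the gene called lower in NeuN+ wells at 72 h. Gabra4 was at 463.3, 575.9 and 322.6 CPM there in the saline and the 2 IFN-γ mice, and at most 98.64 CPM in any named neuron class and mouse. The saline value comes from 3 nuclei (16 transcripts of Gabra4, exact 95% Poisson interval 264.8 to 752.4 CPM, counting error only).

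IFN-γ was compared with saline at 48 h on transcripts summed per mouse and class, with a call only where both IFN-γ mice passed a log2 ratio of 1 the same way and the adjusted p was below 0.01. With 1 saline mouse, the spread comes from the 2 IFN-γ mice alone. No receptor gene was called in any class, beside 0.921% of all genes tested in oligodendrocyte-like nuclei, 0.158% in astrocyte-like, 1.49% in the Inpp5d cluster, 0.0629% in dopamine neuron-like, 0.0163% in GABA neuron-like and 0.0540% in VGLUT2 neuron-like nuclei. In the same order an unadjusted p under 0.05 was reached by 9 of 34, 6 of 27, 0 of 10, 2 of 38, 1 of 43 and 4 of 42 receptor genes tested by edgeR, beside 11.3%, 7.31%, 16.3%, 2.84%, 2.29% and 5.76% of all genes, and DESeq2 called 0 receptor genes in each class. In oligodendrocyte-like nuclei 4 receptor genes had an adjusted p below 0.05, Grik2, Grm3 and Gabrr2 among them.

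Grik2 was at 1130 CPM in oligodendrocyte-like nuclei of the saline mouse and at 1916 and 2045 in the IFN-γ mice (log2 0.88 ± 0.14, adjusted p = 4.67e-08). Grm3 was at 2216, 1677 and 1338 CPM (log2 -0.49, adjusted p = 0.011146) and Gabrr2 at 73.43, 35.55 and 29.78 CPM, of 51, 96 and 43 transcripts (log2 -1.07, adjusted p = 0.0068086). With 10 CPM added to each level, the log2 ratios of Gabrr2 were -0.87 and -1.07 in the 2 IFN-γ mice, so it was not called. The directions of Grik2 and Grm3 were those of the NeuN- wells at 48 h.

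The oligodendrocyte-like class was held by different clusters in the treatments, numbered here by the clustering. Cluster 10 held 117 of the 191 saline nuclei, and cluster 0, led by Neat1 and the interferon-induced Iigp1, held 494 and 199 nuclei of the IFN-γ mice and 0 of the saline mouse. Cluster 0 kept its name narrowly. It had 0 oligodendrocyte markers among its 10 leading genes, and its depth was 0.345 of the median of its mice, just above the limit of 1/3. Grik2 was at 2387 and 2540 CPM in cluster 0 of the IFN-γ mice. In cluster 2, which held nuclei of all 3 mice, Grik2 was at 893.8 CPM in the saline and 917.2 and 891.8 in the IFN-γ mice, so that no difference was seen within it. In cluster 10 it was at 1331 CPM in the saline mouse and 1195 in the first IFN-γ mouse, and the second had 5 nuclei there. A cluster of 23 nuclei of the IFN-γ mice, cluster 25, had Grik2 at 4405 and 4733 CPM and Grm3 at 402.4 and 420.7. Grm3 in cluster 2 was at 1973, 1532 and 1219 CPM. In cluster 10 Gabrr2 was at 122.5 CPM (46 transcripts) in the saline mouse and 89.16 CPM (10 transcripts) in the first IFN-γ mouse. The 5 nuclei of the second gave 270.3 CPM from 4 transcripts. Gabrr2 was at 43.48 and 42.33 CPM in cluster 0 of the IFN-γ mice, and at most at 15.68 CPM in cluster 2. The clusters were formed on these same nuclei, so their values are given with no test.

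**Figure D5:**
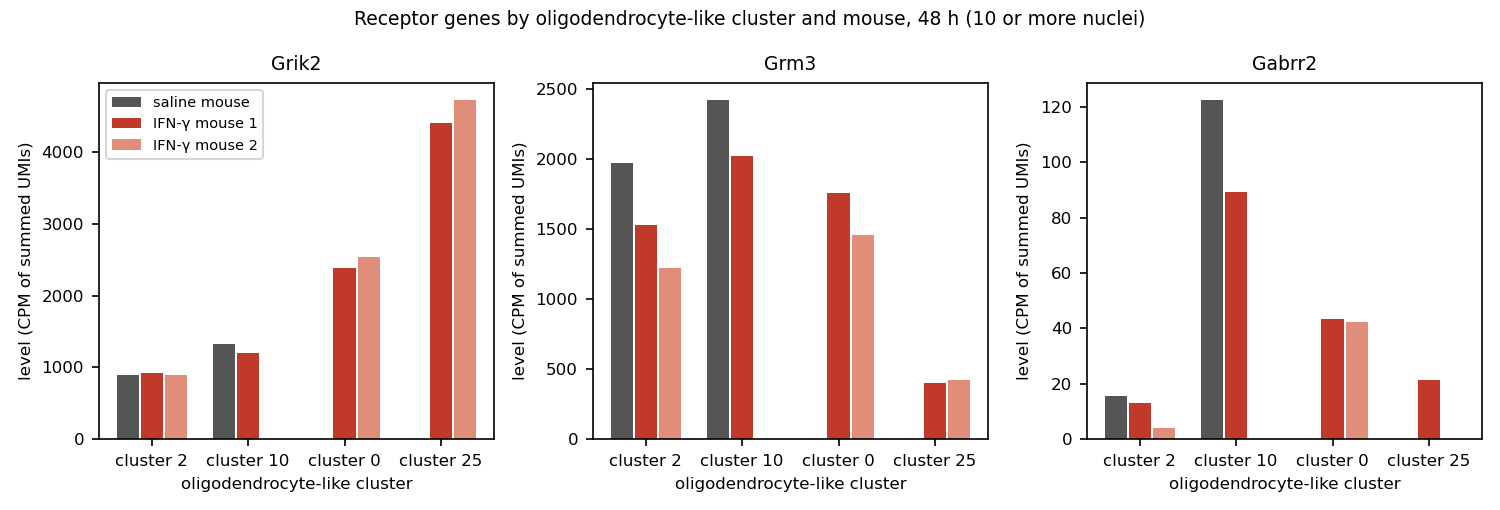
Level (CPM of summed transcripts) of Grik2, Grm3 and Gabrr2 in the 4 oligodendrocyte-like clusters, by mouse, for mice with 10 or more nuclei in a cluster. Grik2 bars are level across mice in cluster 2 (891.8 to 917.2 CPM) and highest in clusters 0 and 25, which hold nuclei of IFN-γ mice only.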

How the data were processed

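Sorted nuclei were sequenced in pooled wells (84 wells, 42 per NeuN fraction) and, at 48 h, as single nuclei of 3 mice. Per the study's methods, wells held 100 nuclei (a legend says about 1000). The authors deposited counts of unique transcripts (UMIs) per gene for both assays: reads were trimmed of poly(A), aligned with STAR (2 passes) to GRCm38 with Gencode vM10, assigned to barcodes, and collapsed by UMI within a Hamming distance of 1. The submitters' processing notes name STAR and GRCm38. In nuclei, gene bodies with introns were counted, and the study's methods describe removal of doublets, so none were called here. Strand use in counting is not given in the sources used here. Intronic priming can make a gene's count depend on its length, so levels are not compared between genes. The depth ranges are in the report; intervals cover counting error only.

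Treatments came from the labels and fractions from the study's barcode list. No 2 wells had identical values. For each fraction and time, IFN-γ was compared with saline by edgeR 4.0.16 (limma 3.58.1, R 4.3.3) with TMM scaling, filterByExpr, the quasi-likelihood test and Benjamini-Hochberg adjustment over all genes tested, a gene being called at a log2 fold change beyond 1 (0.5 between fractions) and an adjusted p below 0.01. The interaction was fitted over both fractions of a time. The fraction comparison used saline wells with time as a term. Nuclei were clustered (Leiden, resolution 1, 2000 variable genes without receptor genes, 30 components, 15 neighbours; scikit-learn 1.9.0, leidenalg 0.10.2), named from marker lists, and summed per mouse and class for edgeR, with genes of at least 10 UMIs. The scripts were tested on simulated data with 200 genes changed by 2 on the log2 scale: 166 of 166 tested were recovered among 2606 genes in NeuN- wells at 6 h, 185 of 185 among 9050 in NeuN+ wells at 6 h, 142 of 193 among 5893 for the interaction at 6 h, and 107 of 175 among 12769 in oligodendrocyte-like nuclei. For these nuclei the simulation left out the limit on the ratio in each IFN-γ mouse. Its recovery is thus for a looser rule than that of the calls.

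Genes named are those called, the 3 smallest p-values per treatment comparison, the 5 largest fraction differences each way, the 3 largest class ratios per class, the major subunits and called genes of the pathway lists. Some genes that this rule names are not reported here and are left out of the figures, while counts and medians over the receptor genes cover all members. The members and lists were chosen with earlier results of these data known. Alternatives were RLE scaling, DESeq2 1.42.0, no filter, saline wells of all times, leaving out each well, and other clusterings.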

Additional observations from a re-analysis of the deposited data

Results flagged for a closer look

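One well stood far from the others of its group by Dixon's test at the 95% level: in NeuN+ wells after IFN-γ at 72 h the lowest value of Gabra4 was 49.3 CPM and the next was 67.94 CPM. The test was run on 16 groups of called genes, and chance flags about 1 in 20 groups.

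The IFN-γ effect differed between the fractions by the interaction test in 4 instances, given as NeuN+ minus NeuN-: Grik2 at 6 h (-2.10) and 24 h (-1.01), Gabbr2 at 24 h (-2.13) and Grm3 at 24 h (1.11). For Grik2 and Grm3 the larger effect was in NeuN- wells.

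The IFN-γ effect differed between times in NeuN- wells in 8 instances, in the comparison added after the data were seen. From 6 to 24 h the log2 effect was higher by 1.78 in Gabrb1, 1.50 in Gria1 and 1.45 in Grid1. From 6 to 48 h it was higher by 1.66 in Gabrb1 and 1.14 in Gria4 and changed by -1.28 in Grik2. From 6 to 72 h it changed by -1.61 in Grik2 and was higher by 1.06 in Gria4.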

How the results depend on the processing

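No effect of a called gene changed direction under the alternatives. The median over the receptor genes tested did in some comparisons: with saline wells of all times from 0.19 to -0.10 in NeuN- wells at 24 h and from 0.04 to -0.02 in NeuN+ wells at 48 h, and with no filter from 0.09 to -0.04 in the interaction at 24 h and from -0.09 to 0.04 at 48 h. With no filter on counts, 3 receptor genes (Gria4, Grik2 and Grm3) were called in NeuN- wells at 6 h instead of 5, 5 instead of 2 at 24 h, 1 (Gabrq) instead of 0 in NeuN+ wells at 24 h, and 1 (Gabra4) instead of 0 in the added comparison of 72 with 6 h in NeuN+ wells. In the interaction at 24 h, no filter gave 4 calls instead of 3, with Grm3 lost (0.99) and Gabra4 and Gria1 added. With saline wells of all times, 0 instead of 1 was called in NeuN+ wells at 72 h. Fits without 1 of the wells gave 3 to 6 calls for NeuN- at 6 h (3 without saline replicate 4 or IFN-γ replicate 5), 2 to 4 at 24 h (4 without saline replicate 9), and 1 to 3 in the interaction at 6 h (2 without saline replicate 1 or 2, 3 without saline replicate 3). In the comparisons of time it gave 1 to 3 calls for 24 h in NeuN- wells (1 without saline replicate 1 or 4 of 6 h, saline replicate 2 or 6 of 24 h or IFN-γ replicate 3 of 6 h), 3 to 5 for 48 h (5 without saline replicate 3 of 6 or 48 h or IFN-γ replicate 1 of 6 h), 1 to 2 for 72 h (1 without saline replicate 1 or IFN-γ replicates 2 or 3 of 6 h), and 0 to 1 for 72 h in NeuN+ wells (1 without saline replicate 12 of 24 h). Grik2 and Grm3 in NeuN- wells at 6 and 24 h were called in every fit. The cause of the changes was not tested. At Leiden resolution 2 the oligodendrocyte-like class held 187 saline nuclei and 446 and 207 IFN-γ nuclei, against 191, 744 and 306 at resolution 1. The tests by class were run at resolution 1 only. NeuN- depth limited tests to 12 to 17 of the 44 genes. No paired analysis was possible because the labels carry no replicate numbers that link wells across groups.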
